A study of Homo sapiens with 6 samples.

Results

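PC-3 cells treated with BenSer were compared here directly with PC-3 cells treated with GPNA, with untreated cells left out. PC-3 is an established cell line from a metastasis of human prostate cancer that grows without androgen. BenSer (benzylserine) is a serine that carries a benzyl group, and GPNA (L-γ-glutamyl-p-nitroanilide) is a glutamine analogue; both compounds are used to block ASCT2, the product of SLC1A5. One group received 10 mM BenSer and the other 1 mM GPNA, each diluted in water and each for 48 h in medium with serum, so that compound and dose cannot be told apart. Total RNA was sequenced, and the labels name 2 libraries per group. The comparison covers the 19056 genes, of 19491 in the tables, that had a mean of at least 5 reads in one group or the other.

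ASCT2 exchanges small neutral amino acids across the plasma membrane and is a main entry route for glutamine in many cancer cells. Glutamine that enters by ASCT2 can leave again through LAT1, a dimer of the SLC7A5 and SLC3A2 products, in exchange for leucine. The study states that BenSer inhibits LAT1 as well as ASCT2 in oocytes, and that it appears to act beyond ASCT2. Cells that run short of amino acids raise the translation of ATF4, a transcription factor that acts on amino acid enzymes and transporters, while leucine and glutamine feed mTORC1, the kinase complex that drives ribosome production, lipid synthesis and growth.

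The BenSer libraries held 32178154 and 31943025 reads and the GPNA libraries 25798967 and 25452745 reads, so the BenSer group was 1.251 times as deep. Between 51.6% and 52.3% of the reads fell on the listed genes. The values are CPM, the reads of a gene scaled to a library of 1000000 reads, and each was a whole number of reads over its library's total. Reads of the same treatment were nearly as alike as draws from a single library: chi-square divided by its degrees of freedom was 1.048 for the BenSer pair and 1.045 for the GPNA pair, against 13.8 to 14.1 across treatments. Each group was therefore counted as 1 sample, its libraries are called columns below, and with the columns used no difference has a replicate check or a p-value. Differences are BenSer minus GPNA on the scale of log2(mean CPM + 1), and a gene is counted as higher or lower from a 1.5-fold difference (0.585 on the log2 scale). Intervals of 95% are exact Clopper-Pearson intervals of the log2 ratio of the merged reads, without the added 1 CPM, and cover counting error only.

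Among 7900 genes with a mean of at least 10 CPM, 95% differed by less than 0.14 on the log2 scale between the BenSer columns and by less than 0.16 between the GPNA columns, whereas the same bound between the groups was 0.47. Of these genes, 1 was past the 1.5-fold difference between the BenSer columns and 1 between the GPNA columns, against 183 between the groups. Over all 19056 genes the numbers were 6, 14 and 356. The columns of a group thus set the reading error, and the spread between cultures treated alike was not measured by them.

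**Figure D1:**
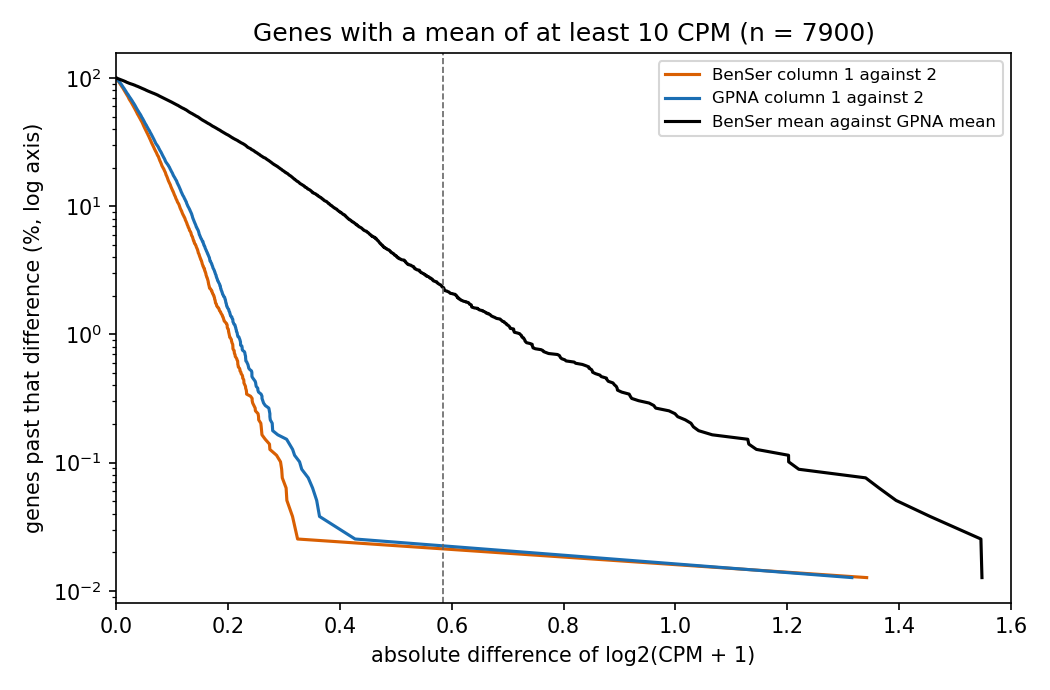
Share of the 7900 genes with a mean of at least 10 CPM (vertical axis, percent, log scale) whose absolute difference of log2(CPM + 1) is larger than the value on the horizontal axis, between the columns of one group (orange, blue) and between the group means (black). The dashed line is the 1.5-fold difference of 0.585; the black line lies far to the right of both others.

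At the 1.5-fold limit, 201 genes were higher with BenSer than with GPNA (1.05% of the genes measured) and 155 were lower (0.813%). At least 2-fold were 20 higher and 10 lower genes. For all 356 genes, both BenSer columns lay on one side of both GPNA columns and the 95% interval did not include 0. That alone is common in these libraries, since 65.3% of all measured genes had columns that did not overlap. The median difference over all genes was -0.0093, with 9132 genes above 0 and 9924 below. Of the 201 higher genes, 188 were protein coding, and of the 155 lower genes 111 were, with 25 long noncoding RNAs among the lower and 9 among the higher genes. Only 14 genes of either direction had a mean under 1 CPM, where the added 1 CPM compresses differences. The balance of higher and lower genes depended on that addition. With 0.1 CPM added in its place 930 genes were higher and 1243 lower, and with 5 CPM 79 and 38. Scaled to reads on the listed genes, with 1 CPM added, the counts were 299 and 342. Just inside the read limit, with a higher group mean of exactly 5 reads, lay 146 genes, and just outside, at 4.5 reads, 112 genes. Through their BenSer reads alone 706 genes passed, and 448 through their GPNA reads alone.

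**Figure D2:**
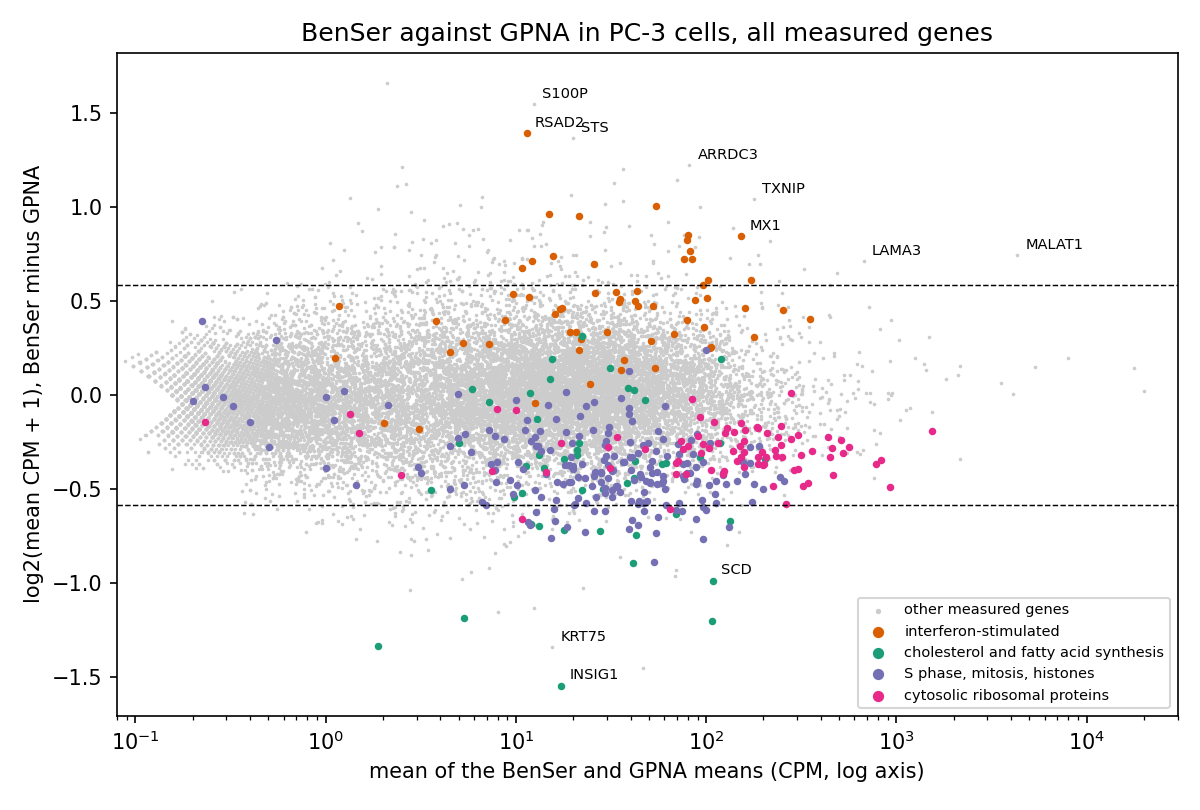
Difference between BenSer and GPNA (log2 of mean CPM plus 1, vertical axis) against the mean level (CPM, log axis) of all 19056 genes, 1 point a gene, with 1.5-fold lines dashed. Interferon-stimulated genes (orange) lie mostly above 0, and genes of lipid synthesis (green), of the cell cycle (purple) and of the ribosome (pink) mostly below.

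Genes of cholesterol and fatty acid supply were among the lower genes. INSIG1 and STARD4 were more than 2-fold lower, and SCD and FASN close to 2-fold. These genes are textbook targets of the SREBP factors, membrane proteins that are held in the endoplasmic reticulum by INSIG when sterols are plentiful and released to the nucleus when sterols run short. Of 25 measured genes of cholesterol synthesis and uptake, 8 were at least 1.5-fold lower and 0 higher, 22 were below 0, and the median was -0.50. Of 21 genes of fatty acid synthesis, 5 were at least 1.5-fold lower and 0 higher, with a median of -0.33. In bulk libraries like these, fewer cells that express a gene and less of its RNA per cell cannot be told apart.

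INSIG1 (ENSG00000186480, chromosome 7 of GRCh37 from 155089486 to 155101945, plus strand) encodes the sterol-regulated retention protein itself. It had 8.36 and 8.23 CPM with BenSer and 25.0 and 27.3 CPM with GPNA. Both BenSer columns lay far below either GPNA column, at a log2 difference of -1.55 (interval -1.80 to -1.51). STARD4, a cytosolic sterol carrier, had 3.36 and 2.38 CPM against 7.403 and 8.21 CPM. It is a low gene, so its interval of -1.70 to -1.19 is wide, but its columns did not overlap. Neither gene encodes an enzyme of sterol synthesis.

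The 4 enzymes of the sterol pathway past 1.5-fold differed by less than these. SQLE, the squalene epoxidase, had 32.6 and 31.1 CPM with BenSer and 54.1 CPM in both GPNA columns (log2 difference -0.75). HMGCS1, which makes HMG-CoA, IDI1, an isoprenoid isomerase, and MSMO1, a sterol demethylase subunit, differed by -0.72, -0.70 and -0.69. SREBF2, which encodes the SREBP form that serves cholesterol synthesis, had a log2 difference of -0.29.

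SCD, the stearoyl-CoA desaturase (chromosome 10 from 102106990 to 102124583), had 74.3 and 70.3 CPM with BenSer and 148 and 141 CPM with GPNA, a log2 difference of -0.99 (-1.05 to -0.95). FASN, the fatty acid synthase (chromosome 17 from 80036214 to 80056170), had 28.9 and 28.1 CPM against 54.9 and 52.6 CPM (-0.89). SREBF1, which encodes the SREBP form that serves fatty acid synthesis, had 20.4 and 21.0 CPM against 35.0 and 34.6 CPM (-0.72). The desaturases FADS2 and FADS1 differed by -0.67 and -0.64. They overlap each other in the annotation, and whether the authors' counting used strand is not given in the sources used here. GPAM, which starts glycerolipid synthesis, stood the other way at 24.8 and 24.7 CPM against 19.1 and 20.2 CPM (0.31). Over the whole lists, the BenSer columns lay wholly below the GPNA columns for 21 of 25 cholesterol genes and 15 of 21 fatty acid genes. They lay wholly above for 1 cholesterol gene and 5 fatty acid genes. Of all measured genes, 65.3% had columns that did not overlap, in either direction.

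**Figure D3:**
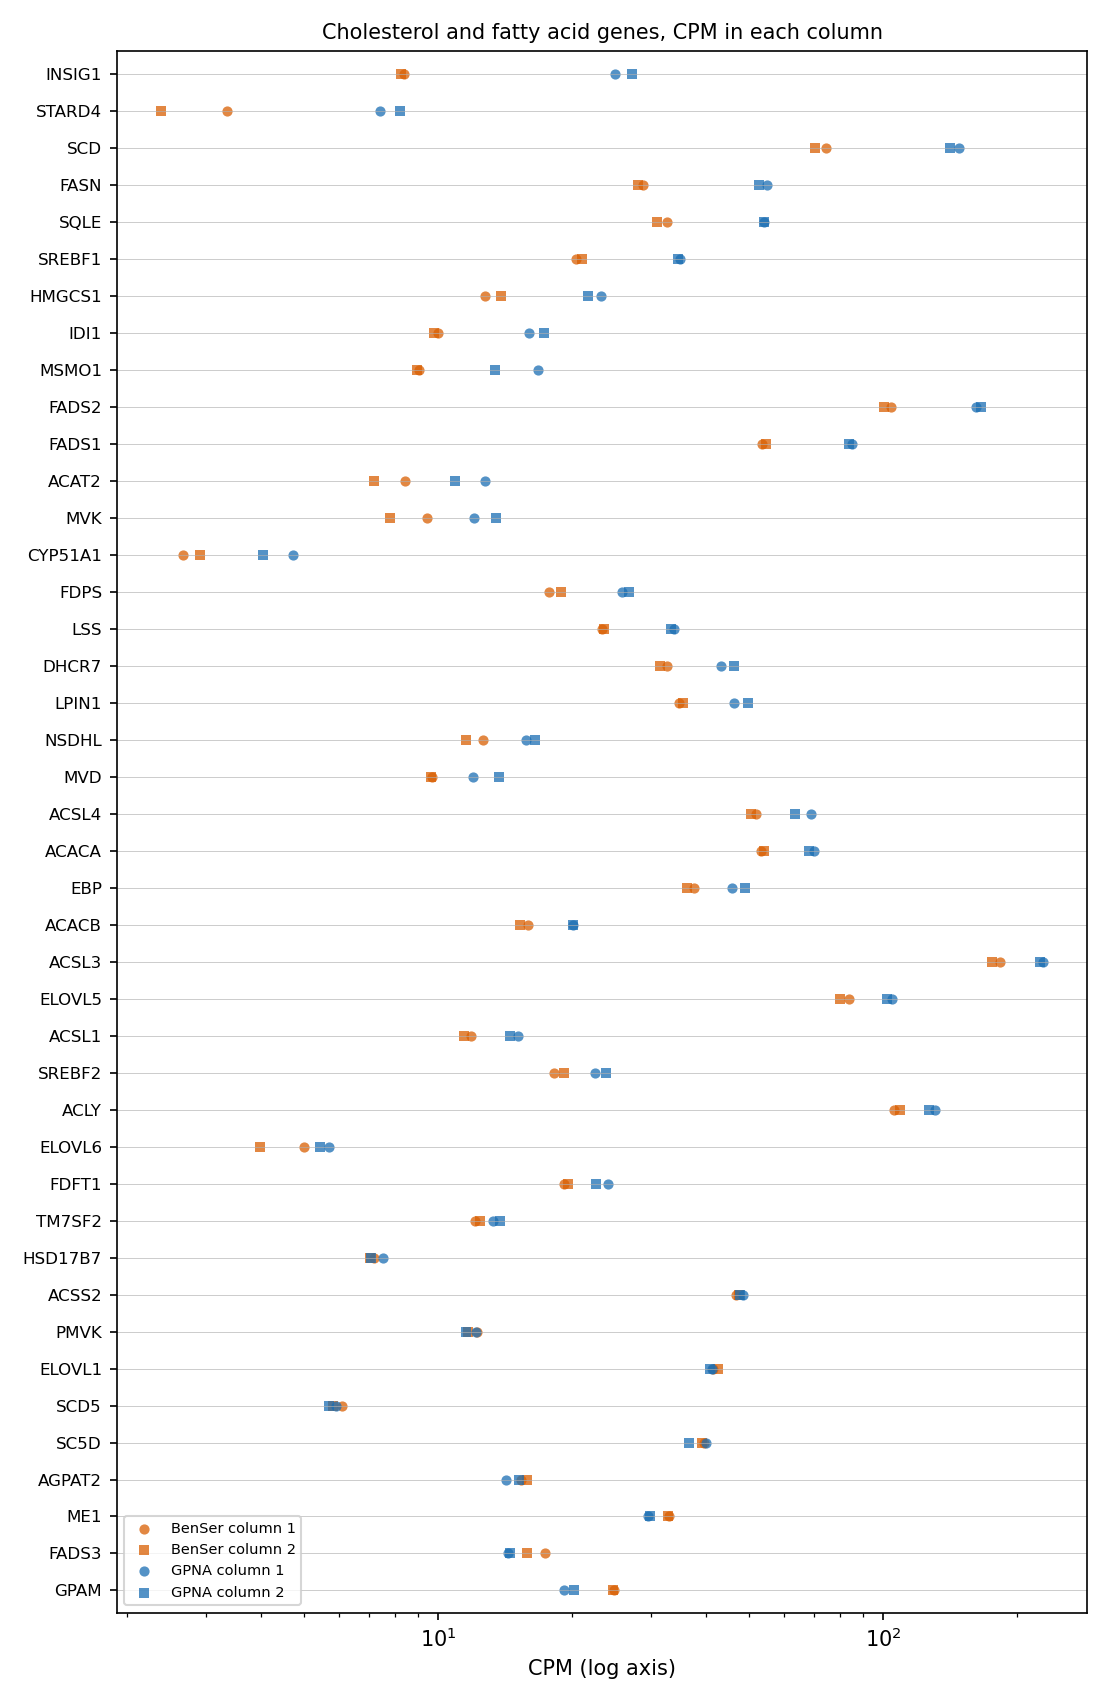
CPM (log axis) of measured genes of the lists for cholesterol and for fatty acid synthesis in the 2 BenSer columns (orange) and the 2 GPNA columns (blue), ordered by difference. INSIG1 and STARD4 stand at the top with the widest gaps, and the columns close up and cross towards the bottom.

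A RefSeq promoter window was at hand for 12311 of the measured genes (17734 windows, 1 for each start, GRCh38.p14), and its 250 bases before the start were searched on both strands. None of the motifs searched here is part of another. Letters of a sterol regulatory element (TCACNCCAC), chosen after the values of these genes had been seen, were found in 1.18% of the genes, in 0 of 98 lower genes and in 1 of 18 genes of the cholesterol list. That one was SREBF2, which is shown because it encodes the SREBP of the pathway; capitals mark the match, on the plus strand of chr22:41832936-41833015.
SREBF2: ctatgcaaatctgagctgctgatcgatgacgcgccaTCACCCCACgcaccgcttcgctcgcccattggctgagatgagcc

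Interferon-stimulated genes were the largest group on the higher side. Type I interferons, which infected or stressed cells secrete, act through a factor complex that includes IRF9 on genes that carry an interferon-stimulated response element, and the products sense or restrict viral RNA. Of 61 measured genes, 16 were at least 1.5-fold higher with BenSer than with GPNA and 0 lower. Above 0 were 58, and for 57 of these the columns did not overlap, against 65.3% of all measured genes in either direction. The median was 0.46, and it ranged from 0.44 to 0.48 over the 4 pairings of a BenSer with a GPNA column. The interferon genes IFNB1 and IFNL1 were not analysed here.

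RSAD2, an enzyme that makes a chain-terminating nucleotide (chromosome 2 from 7005688 to 7038370), had 16.7 and 17.2 CPM with BenSer against 6.40 and 5.23 CPM with GPNA, a log2 difference of 1.39 (1.35 to 1.73). OAS1, a sensor of double-stranded RNA, had 74.0 and 71.4 CPM against 34.8 and 36.7 CPM (1.00), and its relative OASL 19.9 and 20.2 CPM against 9.88 and 9.74 CPM (0.96). Each of these genes had about the same CPM in both columns of a group and about 2-fold or more between groups. The dynamin-like restriction factors MX2 and MX1 differed by 0.95 and 0.85, with MX1 at 194 and 198 CPM against 106 and 111 CPM. IFI6, IFIT1 and IFIT2 followed at 0.85, 0.82 and 0.76. IRF9 had 3.17 and 2.47 against 3.37 and 3.30 CPM, and BST2, which tethers budding virus, 1.65 and 2.10 against 2.36 and 2.004 CPM, with intervals that included 0.

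**Figure D4:**
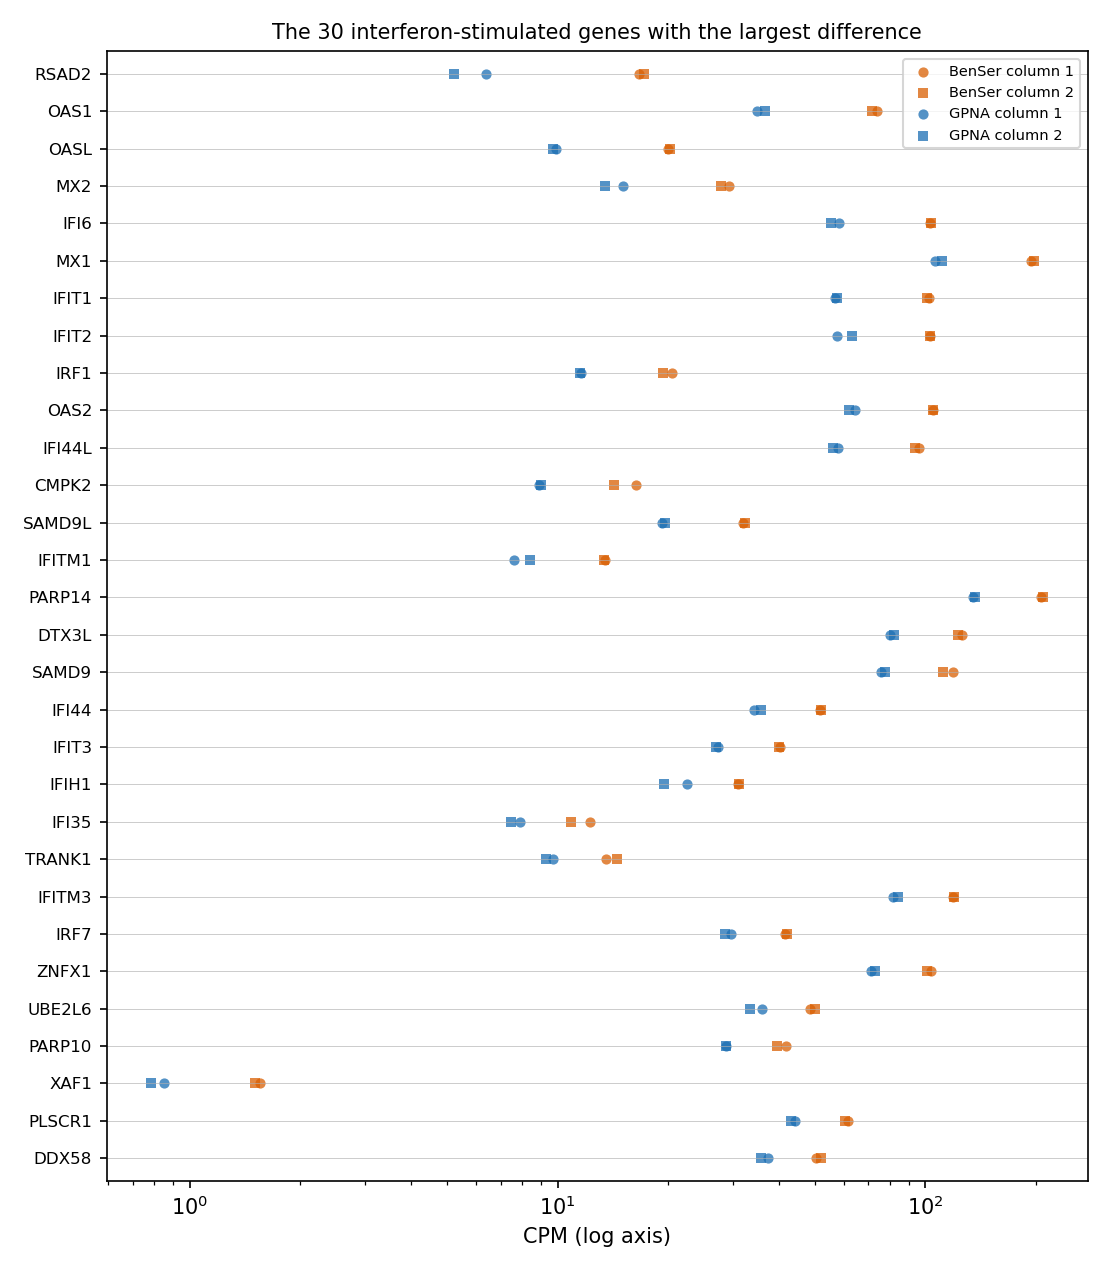
CPM (log axis) of the 30 interferon-stimulated genes with the largest difference, in the 2 BenSer columns (orange) and the 2 GPNA columns (blue). The orange points lie to the right of the blue points in each of these genes, from RSAD2 at the top with 16.7 and 17.2 against 6.40 and 5.23 CPM.

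Genes that present peptides on MHC class I, which interferon also raises, stood on the same side by less. Of 15 measured, 12 were above 0 without overlap of the columns, against 65.3% of all measured genes without overlap in either direction. The median was 0.31. Past 1.5-fold was 1 gene, TAP1, a subunit of the peptide transporter of the endoplasmic reticulum (20.8 and 19.3 CPM against 12.9 and 13.04 CPM). TAP1 was under 1.5-fold without BenSer column 1 (0.54) and without GPNA column 1 (0.58). TAPBP, which loads the peptides, had 72.6 and 73.4 CPM against 48.8 and 49.2 CPM (0.57).

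The letters of the interferon-stimulated response element, GAAA and GAAA with any 2 bases between them, were found before a start of 29 of the 49 interferon-stimulated genes with a window (59.2%), against 3.35% of all genes. Among the genes past 1.5-fold they were in 10 of 146 higher genes (6.85%) and in 2 of 98 lower genes (2.04%). The 4 windows below belong to higher genes, and capitals mark the matches, which on the other strand read TTTC first.
IFIT1 (chr10:89392485-89392564, plus strand): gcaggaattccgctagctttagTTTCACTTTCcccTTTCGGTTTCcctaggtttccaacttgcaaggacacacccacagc
IFI6 (chr1:27672241-27672320, minus strand): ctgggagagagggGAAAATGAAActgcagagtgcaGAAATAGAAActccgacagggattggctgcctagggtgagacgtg
IFITM1 (chr11:313960-314039, plus strand): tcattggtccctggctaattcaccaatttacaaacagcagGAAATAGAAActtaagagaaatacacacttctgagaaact
PARP14 (chr3:122680759-122680838, plus strand): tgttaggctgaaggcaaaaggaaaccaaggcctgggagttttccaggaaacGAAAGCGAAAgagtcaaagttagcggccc

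Genes of the cell cycle lay below 0 almost throughout, most of them by less than 1.5-fold. Of 83 genes of mitosis and G2/M, 82 were below 0 with columns that did not overlap, against 65.3% of all measured genes in either direction. Past 1.5-fold were 9, and the median was -0.43. Of 67 genes of DNA replication and S phase, 66 were below 0, 3 past 1.5-fold, and the median was -0.37. The replication-dependent histone genes, transcribed in S phase, held the largest number past the limit, with 14 of 59 lower, 0 higher and a median of -0.46. For 37 genes of homologous recombination and Fanconi repair the median was -0.26, with 3 lower (EME1, FANCE and BRCA2).

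HMMR, a spindle protein, had the largest difference of the mitotic genes, with 37.2 and 36.7 CPM against 70.9 and 67.9 CPM (-0.89, interval -0.98 to -0.83). KIF23, a kinesin of cytokinesis, CDKN3, a phosphatase of CDK1, and CEP55, which recruits the abscission machinery, differed by -0.73, -0.66 and -0.67. CDK1, the kinase that starts mitosis (chromosome 10 from 62538089 to 62554610), had 76.0 and 76.3 CPM with BenSer and 115 and 117 CPM with GPNA, a log2 difference of -0.60 (-0.66 to -0.55). UBE2C and CDC20, which serve the anaphase-promoting complex, differed by less, at -0.47 and -0.30. For CDC20 these were 48.8 and 49.3 CPM against 60.2 and 60.7 CPM, so its columns were still apart. In S phase, E2F8, a repressor of the E2F family, had 11.5 and 10.8 CPM against 19.6 CPM in both GPNA columns (-0.76) and PRIM1, the primase, a log2 difference of -0.69. E2F2 had 4.48 and 4.07 CPM against 6.98 and 5.74 CPM (-0.48). E2F1 was the exception of the list, with columns that overlapped at 17.7 to 19.0 CPM (0.02, -0.11 to 0.14).

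The histone genes HIST1H1D and HIST1H2AG stood at 70.8 and 71.3 against 120.0 and 123 CPM (-0.77) and at 98.3 and 100.9 against 162 and 164 CPM (-0.70). HIST1H4C differed by -0.69. HIST1H2AC, one of 6 members above 0, had 107 and 109 CPM against 93.5 and 89.3 CPM (0.24). Histone genes have near-identical copies, so the share of reads that each member received is uncertain. The joint list of cell cycle brakes and D cyclins showed no common direction, with 13 of 22 genes above 0 and none past 1.5-fold. CDKN2B, an inhibitor of CDK4 and CDK6, had 42.7 and 42.5 CPM against 28.3 and 28.2 CPM (0.58), and CDKN1A 16.9 and 17.3 against 13.5 and 11.7 CPM (0.41).

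Letters of E2F sites (TTTCCCGC, TTTGGCGC and TTTCGCGC) were found before a start of 21 of 55 genes of replication and S phase (38.2%) and of 6 of 71 genes of mitosis (8.45%), against 4.44% of all genes. They were in 8 of 98 genes past 1.5-fold lower (8.16%) and in 3 of 146 higher (2.05%). The windows show CDK1, which is past 1.5-fold, and E2F2 and LIG1, the DNA ligase of replication, below 0 by less.
CDK1 (chr10:60778314-60778393, plus strand): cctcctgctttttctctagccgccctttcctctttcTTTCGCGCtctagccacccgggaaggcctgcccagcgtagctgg
E2F2 (chr1:23531234-23531313, minus strand): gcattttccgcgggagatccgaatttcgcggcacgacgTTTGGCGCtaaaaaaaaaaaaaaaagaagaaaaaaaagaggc
LIG1 (chr19:48170415-48170494, minus strand): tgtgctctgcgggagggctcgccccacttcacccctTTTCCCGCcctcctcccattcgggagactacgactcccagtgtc

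Transcripts of ASCT2 and of LAT1 had larger values with BenSer than with GPNA in every column. SLC1A5, which encodes ASCT2 (chromosome 19 from 47278140 to 47291851, minus strand), had 62.2 and 62.3 CPM with BenSer and 42.1 and 43.3 CPM with GPNA, a log2 difference of 0.53 (0.47 to 0.62) that did not reach 1.5-fold. SLC7A5, the light chain of LAT1 (chromosome 16 from 87863629 to 87903113), had 93.5 and 96.6 CPM against 59.96 and 61.3 CPM (0.64, interval 0.59 to 0.71), and its heavy chain SLC3A2 109.8 and 104 CPM against 71.0 and 72.1 CPM (0.57). SLC1A4, the related carrier ASCT1, differed by 0.42. SLC7A11, which takes up cystine for glutamate, had 71.4 and 69.7 CPM against 60.9 and 58.1 CPM (0.24). SLC6A9, a glycine carrier, had the largest difference of the list, with 15.5 and 15.2 CPM against 7.91 and 7.90 CPM (0.88), followed by the leucine carrier SLC43A2 (0.81). SLC38A2, a glutamine carrier known to rise in starved cells, had 507 and 509 CPM against 384 and 373 CPM (0.42), while SLC38A1, another glutamine carrier, was at 355 and 354 against 369 and 362 CPM (-0.05). Over 30 measured amino acid transporters, 3 were past 1.5-fold higher, 0 lower, 20 were above 0, and the median was 0.22 (0.12 with 5 CPM added in place of 1).

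ATF4 had 166 and 164 CPM with BenSer and 141 and 139 CPM with GPNA (0.24, interval 0.20 to 0.29). Of 37 genes that ATF4 and its partner CHOP act on, 30 were above 0, 4 past 1.5-fold higher and 0 lower, and the median was 0.20. GDF15, a stress hormone, had 32.6 and 32.4 CPM against 16.6 and 16.8 CPM (0.92), STC2, a secreted glycoprotein, 168 and 165 against 100.55 and 100.03 CPM (0.73), NUPR1, a stress-induced nuclear protein, 49.7 and 48.8 against 31.2 and 31.4 CPM (0.64), and JDP2, a bZIP repressor, 16.1 and 16.3 against 10.8 and 9.70 CPM (0.61). ASNS, which makes asparagine with the amide of glutamine, had 68.2 and 67.6 CPM against 49.2 and 48.2 CPM (0.47), and PHGDH, which opens serine synthesis, 109 and 111 CPM against 75.2 and 76.5 CPM (0.53). DDIT3, which encodes CHOP, differed by 0.23. TRIB3, a pseudokinase, lay below 0, with 73.4 and 69.1 CPM against 77.9 and 80.5 CPM (-0.15). The other arms of amino acid supply had no common direction, with medians of 0.01 for 20 genes of serine and folate metabolism, -0.04 for 18 of glutamine, asparagine and proline metabolism and -0.05 for 20 cytosolic aminoacyl-tRNA synthetases. In the last list MARS was at 0.33 and VARS at -0.39, and none was past 1.5-fold. Of 32 genes of endoplasmic reticulum stress none was past 1.5-fold either, and the median was 0.01.

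Letters of the ATF4 site (TGATGNAA) were found before a start of 5 of 27 genes of the ATF4 list (18.5%), against 2.60% of all genes, and in 8 of 146 higher (5.48%) and 5 of 98 lower genes (5.10%). SLC1A5 is shown because it encodes ASCT2, which both compounds are used to block, and ASNS because it encodes a glutamine-using enzyme. JDP2 is the member past 1.5-fold with a match.
SLC1A5 (chr19:46784868-46784947, minus strand): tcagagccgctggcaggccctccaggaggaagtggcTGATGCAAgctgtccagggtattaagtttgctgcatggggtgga
ASNS (chr7:97872433-97872512, minus strand): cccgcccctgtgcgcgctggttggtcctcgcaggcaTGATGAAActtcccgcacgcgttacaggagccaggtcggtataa
JDP2 (chr14:75427942-75428021, plus strand): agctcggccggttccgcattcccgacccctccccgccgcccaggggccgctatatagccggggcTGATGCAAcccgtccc

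Most genes of the protein-making apparatus lay below 0, nearly all by less than 1.5-fold. Messages of ribosomal proteins and elongation factors begin with a run of pyrimidines (TOP) through which mTORC1 sets their translation. Of 82 genes of cytosolic ribosomal proteins, 81 were below 0, 2 past 1.5-fold lower (RPS23 and RPS29), and the median was -0.29. RPLP0, a protein of the ribosomal stalk, had 768 and 777 CPM against 1093 and 1079 CPM (-0.49), and RPL12 210.2 and 208 CPM against 313 and 314 CPM (-0.58). Other TOP messages had a median of -0.26 over 24 genes, with EEF1B2, an elongation factor subunit, at 98.8 and 99.0 against 148 and 143 CPM (-0.55) and EEF1A1 at 1903 and 1909.8 against 2427 and 2405 CPM (-0.34). Genes that host small nucleolar RNAs, many of them TOP genes as well, had a median of -0.27, with GAS5 at -0.51. Ribosome biogenesis genes were at -0.15 (59 of 67 below 0, none past 1.5-fold), SR proteins and hnRNPs at -0.22 (28 of 29 below 0) and translation initiation factors at -0.06, with 20 of these 63 above 0. Ribosomal protein genes and EEF1A1 have many processed pseudogenes, and reads shared with these copies make single values uncertain.

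Nuclear and mitochondrial genes of the respiratory chain stood on opposite sides. Of 76 nuclear genes of the chain, 66 were below 0, with a median of -0.19, and 2 were past 1.5-fold lower. SDHA, the flavoprotein that links the TCA cycle to the chain (chromosome 5 from 218418 to 257197), had 94.3 and 92.9 CPM against 162 and 165 CPM (-0.80, interval -0.85 to -0.76), and ATP5D, a subunit of ATP synthase, 9.48 and 9.30 CPM against 15.5 and 16.1 CPM (-0.69). SDHA has near-identical pseudogene copies, so its reads are uncertain. All 24 measured genes of the TCA cycle were below 0, with a median of -0.195 and PDHA1 and DLST at -0.42 and -0.38. By contrast 12 of 13 protein genes of the mitochondrial genome were above 0, with a median of 0.24 and no gene past 1.5-fold. MT-ND4, a subunit of complex I, had 312 and 315 CPM against 228 and 224 CPM (0.47), and MT-ND2 90.1 and 89.6 against 68.3 and 69.5 CPM (0.38). The mitochondrial ribosomal RNAs MT-RNR1 and MT-RNR2, named after their values were seen, differed by 0.15 and 0.10.

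Detoxification genes, TXNIP and its arrestin relatives were among the higher genes. Of 29 targets of NRF2, the factor that answers electrophiles, 7 were past 1.5-fold higher, 0 lower, and the median was 0.22. These 7 were AKR1C3, AKR1C1, AKR1B10, EPHX1, GPX2, OSGIN1 and FTH1; AKR1C1, AKR1C3 and AKR1B10 reduce carbonyls, GPX2 reduces peroxides and FTH1 stores iron. EPHX1, the microsomal epoxide hydrolase, had 67.0 and 69.2 CPM against 38.5 and 38.7 CPM (0.80), and AKR1C3, a ketosteroid reductase, 18.7 and 17.8 against 9.69 and 8.88 CPM (0.90), though the AKR1C genes resemble each other closely enough to share reads. The targets of NRF2 most often used as its markers did not pass 1.5-fold, with NQO1 at 67.6 and 66.1 against 52.8 and 53.8 CPM (0.32) and GCLM at -0.23. TXNIP, an inhibitor of thioredoxin and of glucose uptake, had 241 and 237 CPM against 118 and 114 CPM (1.04), ARRDC3 112 and 116 against 49.4 and 47.5 CPM (1.22), and ARRDC4 7.80 and 7.36 against 3.37 and 4.13 CPM (0.85). These 3 genes, known as targets of the glucose sensor MondoA, were the only members of the 13-gene MXD and MondoA list past 1.5-fold, and MLXIP, which encodes MondoA, was at 0.09. Among hypoxia and glycolysis genes, ANGPTL4 and ADM, both secreted, were past 1.5-fold (1.01 and 0.80), with the list's median at 0.07. HSPA1A and HSPA1B, the inducible HSP70 genes, differed by 0.79 and 0.77 and DNAJB4 by 0.73, but HSPA1A and HSPA1B are near-identical and cannot be separated by reads.

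Chains of laminin, the main protein of basement membranes, were among the higher genes. LAMA3, a chain of laminin-332 (chromosome 18 from 21269417 to 21536186), had 837 and 832 CPM with BenSer and 511 and 507 CPM with GPNA (0.71, interval 0.69 to 0.73). LAMB3, another chain of the same trimer, was at 0.35. LAMA4 was past 1.5-fold too (0.71), and 29 of 35 genes of laminins, integrins and basement membrane were above 0. SDC1, a heparan sulphate proteoglycan, stood against the rest of its family, with 110.4 and 112 CPM against 181 and 188 CPM (-0.73), whereas SDC2, SDC3 and GPC6 were at 0.50, 0.42 and 0.50. Of 18 genes of TGF-beta and YAP responses, 4 were past 1.5-fold higher. ID1, an inhibitor of helix-loop-helix factors that responds to BMP signals, had 117 and 120.1 CPM against 67.0 and 64.3 CPM (0.84), and ID3, TGFB2 and THBS1 differed by 0.60, 0.62 and 0.65. The YAP targets CYR61 and CTGF were at -0.30 and -0.28.

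**Figure D5:**
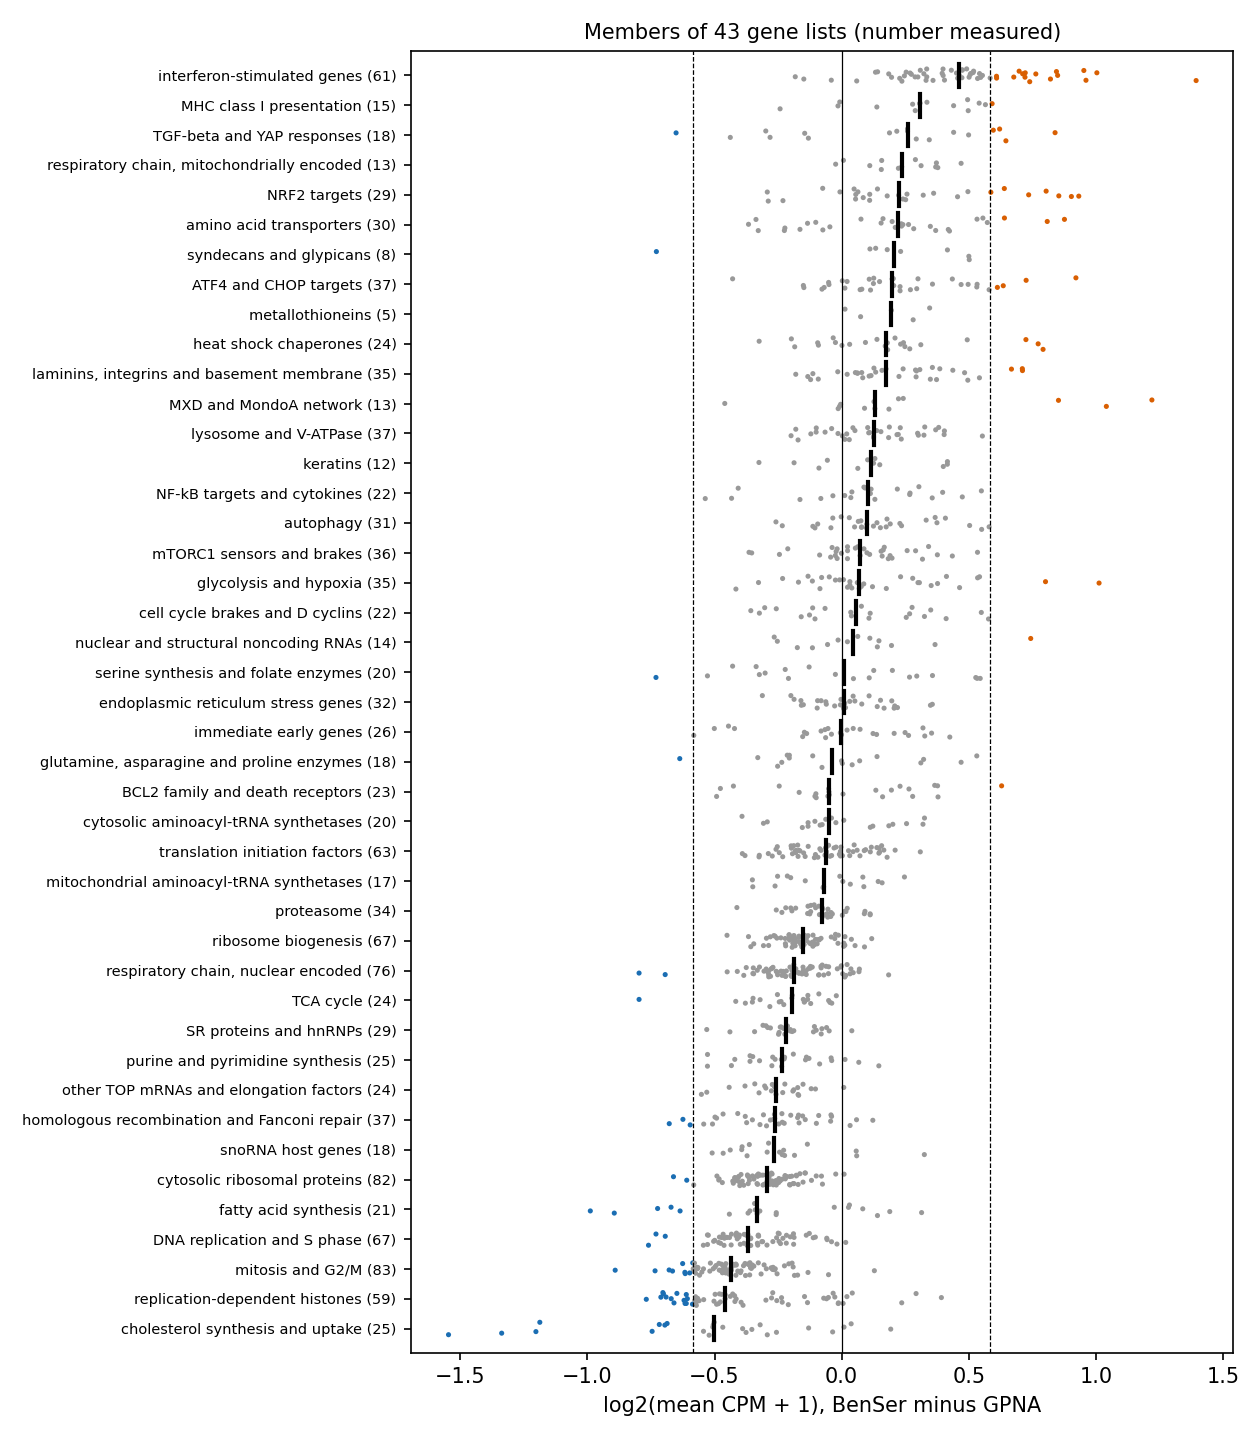
Difference between BenSer and GPNA (log2 of mean CPM plus 1) of each measured member of the 43 gene lists, 1 point a gene, with the list's median as a black bar and the number measured in brackets; orange and blue points are past 1.5-fold (dashed lines). Cholesterol genes have the lowest median, -0.50, and interferon-stimulated genes the highest, 0.46.

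Together, 48 of the 201 higher and 49 of the 155 lower genes belonged to one of the 43 lists, so most genes past 1.5-fold were in none. S100P, a calcium-binding protein, had the largest difference among genes of at least 10 CPM, with 19.1 and 18.8 CPM against 6.20 and 5.46 CPM (1.55). STS, the steroid sulphatase on the X chromosome, had 29.5 and 28.6 against 10.5 and 10.9 CPM (1.36), SLC16A9, a monocarboxylate carrier, 53.2 and 49.6 against 23.5 and 20.1 CPM (1.20), and DHRS3, which reduces retinal, 96.1 and 98.5 against 43.2 and 43.7 CPM (1.14). CYP1B1, a cytochrome P450, ALDH3A1, an aldehyde dehydrogenase, TNFSF15, a cytokine, and CLU, an extracellular chaperone, differed by 1.13, 1.02, 1.07 and 1.03. On the lower side were KRT75, a keratin of the hair follicle, with 8.70 and 7.95 against 22.6 and 22.7 CPM (-1.34), TMEM154 (-1.16), the long noncoding RNA CTC-529P8.1 (-1.13), SRBD1 (-1.03), CBX5, which encodes heterochromatin protein HP1 alpha (-0.96), and RBM3, an RNA-binding protein induced by cold (-0.93). CTD-2328D6.1, a pseudogene, had 23.9 and 25.0 against 65.8 and 71.5 CPM (-1.46), and its reads may belong to other copies.

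By the difference in CPM rather than by fold, noncoding RNAs stood first on the higher side. MALAT1, a nuclear long noncoding RNA of splicing bodies (chromosome 11 from 65265111 to 65275544), had 5426 and 5376 CPM with BenSer and 3227 and 3222 CPM with GPNA (0.74). RN7SK, the scaffold of the complex that holds back P-TEFb, had 18526 and 18606 against 16779.7 and 16903 CPM (0.14), RN7SL2, an RNA of the signal recognition particle, 8495 and 8493 against 7375 and 7452 CPM (0.20), and RPPH1, the RNA of RNase P, 5582 and 5595 against 5031 and 5063 CPM (0.15). The largest differences in CPM on the lower side included those of EEF1A1, RPLP0, NPM1 and RPS24, with NPM1, a nucleolar chaperone, at 648 and 651 against 888 and 878 CPM (-0.44).

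The labelled cell type was checked against marker genes. The epithelial genes KRT8, KRT18, KRT19 and EPCAM and the adhesion receptor CD44 lay between 91.2 and 781 CPM in every column and differed by at most 0.13 between groups, and VIM was at 145 and 142 against 187 and 179.5 CPM (-0.35). KLK3 and KLK2, markers of prostate secretory cells, and PTPRC, CD68, PECAM1, VWF and DCN, markers of blood, vessel and stroma, were not analysed here. COL1A1 had 3.65 to 5.07 CPM and COL3A1 0.589 to 1.31 CPM.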

How the data were processed

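Total RNA of PC-3 cells was sequenced after either compound (TruSeq Stranded, paired-end). Per the labels and the study's methods, the authors aligned trimmed reads with TopHat2 and Bowtie2 to hg19 (GRCh37.p13), counted them per gene with HTSeq 0.6.2p2 and kept genes above a read threshold. The deposited values are CPM, normalized by the authors to library size; whether counting used strand is not given in the sources used here. The deposited tables also hold the authors' own fold changes and p-values against untreated cells, which were not used, and 8 column entries (6 distinct columns) that matched no sample by label, likewise unused, so that 2 of 4 columns per treatment entered. The methods describe 4 replicates, so the lack of a replicate check here comes from the columns that could be matched.

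Both tables were joined by gene identifier. Whole reads were recovered from the CPM for 100% of values (tolerance 0.01 read). Genes were kept where one group or both averaged 5 reads or more, and differences were taken on log2(mean CPM + 1), a scale that understates the change of low genes. A count test on the recovered reads with edgeR 4.0.16 called 3411 genes higher and 3011 lower at an adjusted p under 0.05; like limma 3.58.1 and DESeq2 1.42.0 it compares these libraries, not the conditions. Column numbers do not pair the samples (Pearson r of 0.068 across 7900 genes, which are not independent replicates). The fits were tested on simulated data. Positions are from GENCODE lifted to GRCh37, promoters from RefSeq (GRCh38.p14).

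The members and gene lists were chosen with earlier results of these data known. Named genes were the 12 largest differences in each direction among genes of at least 10 CPM whose columns did not overlap, the 5 largest rises and falls in CPM, up to 4 members per list of at least 5 CPM by absolute difference, and SLC1A5, SLC1A4, SLC7A5, SLC3A2, SLC7A11, ATF4, CDK1, CDC20, UBE2C and E2F2; other genes in the text were chosen after their values were seen. Some genes that this rule names are not reported here. Of 272 named genes, 179 overlap another gene in the annotation, whose reads may be mixed with theirs. Alternatives covered the pseudocount, filters, scaling, fold limit, test and left-out columns.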

Additional observations from a re-analysis of the deposited data

How the results depend on the processing

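The counts of genes higher and lower with BenSer depended on how low genes were weighted. They were 930 and 1243 with a pseudocount of 0.1 CPM, 338 and 317 with 0.5 CPM, and 79 and 38 with 5 CPM. Scaled to reads on the listed genes they were 299 and 342, and without the 10 most abundant genes in that total 355 and 368; both scalings raise every CPM and so make the added 1 CPM relatively smaller. A smaller planned fold limit gave 1308 and 1349 genes and one of 2-fold 20 and 10. Library-level tests at an adjusted p under 0.05 gave 3305 and 3124 genes (limma), 3411 and 3011 (edgeR) and 1941 and 1567 (DESeq2). The limma fit with a replicate block gave 3267 and 3083, although the column numbers share only a number. Filters, TMM, DESeq2 size factors, intervals wholly past the limit and left-out columns kept both counts within 1.5 times, at 212 to 227 higher and 176 to 190 lower genes without 1 column. No scaling moved the median of all genes by more than 0.0179. With a pseudocount of 5 CPM, 23 of the 43 list medians moved by more than their spread over the column pairings. Those of amino acid transporters, homologous recombination and snoRNA host genes were 0.12, -0.17 and -0.18 there, against 0.22, -0.26 and -0.27 as reported. Medians of 3 lists close to 0 changed sign. Scaled to reads on the listed genes, those of endoplasmic reticulum stress genes and of serine and folate enzymes were -0.0074 and -0.0063. The one of immediate early genes, -0.0027 as reported, was 0.0215 with a minimum of 1 CPM, 0.0028 with TMM, 0.0050 with DESeq2 size factors, 0.0294 without BenSer column 2 and 0.0554 without GPNA column 2. Without BenSer column 1, FANCE (-0.56), RPS29 (-0.54), OSGIN1 (0.54) and TAP1 (0.54) were under 1.5-fold, and without BenSer column 2 BRCA2 (-0.55), PYCRL (-0.56), FTH1 (0.58), ID3 (0.56), AURKB (-0.57) and CEACAM6 (0.58). Without GPNA column 1 the same held for PYCRL (-0.53), FTH1 (0.58), TAP1 (0.58), BMF (0.55), CEACAM6 (0.58), MSMO1 (-0.53) and AKR1B10 (0.55), and without GPNA column 2 for FANCE (-0.53), BRCA2 (-0.58), JDP2 (0.55), OSGIN1 (0.58), TGFB2 (0.58), ID3 (0.55), AURKB (-0.57) and MAD2L1 (-0.56). The causes of these changes were not tested. With the columns used counted as 1 sample a group, the spread between cultures was not measured here.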

Other observations

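Several small groups of genes outside the lists, chosen after their values were seen, are given as values. Among known targets of the aryl hydrocarbon receptor, which senses planar aromatic compounds, CYP1B1 had 43.9 and 46.2 CPM with BenSer and 20.7 and 19.4 CPM with GPNA, and ALDH3A1 39.6 and 39.5 against 19.1 and 18.9 CPM. CYP1A1 was low, at 1.46 and 1.35 against 0.659 and 0.746 CPM, TIPARP differed by 0.36 on the log2 scale, and the columns of AHRR overlapped (-0.17). DHRS3 and RDH10, which convert retinal and retinol in opposite directions, differed by 1.14 and 0.90, with RDH10 at 51.8 and 51.5 against 27.4 and 27.1 CPM. NGFR, a neurotrophin receptor, had the largest log2 difference of any measured gene, 1.66, at 3.57 and 3.82 against 0.543 and 0.432 CPM. IGFBP3, which binds insulin-like growth factors, had 125 and 124 against 60.4 and 62.8 CPM (1.00).

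Values of 3 further genes of sterol handling, also chosen after they were seen, were above 0. ABCA1, a cholesterol exporter, had 25.2 and 23.6 CPM with BenSer and 18.9 and 19.3 CPM with GPNA (0.34), MYLIP, a ubiquitin ligase, 10.4 and 10.99 against 7.33 and 8.37 CPM (0.40), and ABCG1 4.91 and 5.13 against 4.38 and 4.01 CPM (0.21). None passed 1.5-fold.

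RN7SL5P, a signal recognition particle RNA copy, was the one gene of at least 10 CPM past 1.5-fold between columns of a group. It had 39.3 and 14.9 CPM with BenSer and 36.0 and 13.9 CPM with GPNA, so that column 1 lay above column 2 in both groups.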
